A study of Mus musculus with 6 samples.

Results

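The genes described here encode collagens, laminins and 2 families of secreted or membrane-bound matrix proteases, the Adamts and Mmp proteases. They were chosen by symbol alone, with Col1a1, Col3a1 and the Adamts-like genes left out, and a gene was kept when its span and the 1000 bases on either side held at least 3 cytosine positions with a value in every library. Of 95 annotated genes with such symbols, 50 lie in the stretch of the genome that could be used, and 49 of those reached the minimum: 21 collagens, 10 laminins, 12 Adamts genes and 6 Mmp genes, out of 9197 genes tested in all. The gene left below the minimum, Mmp19, had 2 positions, while Col9a3 and Adamts5 entered with 4 each.

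The data are methylation levels from reduced representation bisulfite sequencing, a method that samples the CpG-rich restriction fragments of the genome. All 6 libraries came from intestinal organoids of the Apc Min genotype, a mouse allele that truncates the Wnt pathway inhibitor Apc, and all were grown in medium low in glutamine. There were 3 biological replicates without further treatment and 3 that received DM-aKG, the dimethyl ester of α-ketoglutarate, which can enter cells. The labels state no age, sex or number of donor animals, no dose and no duration, and they tie no control to a treated culture. Each level is an average over all cells of a culture, so a change in every cell and a change in the mix of cells cannot be told apart.

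Collagens form the fibrils, networks and filaments of the extracellular matrix, and laminins are trimers of an alpha, a beta and a gamma chain that build the basement membrane on which the intestinal epithelium rests. Adamts and Mmp enzymes are zinc proteases that trim procollagens, cut proteoglycans and degrade matrix. In the gut most fibrillar collagen comes from mesenchymal cells, while epithelial cells make part of the basement membrane. α-Ketoglutarate is a co-substrate of the TET enzymes, which oxidise 5-methylcytosine, and also of the prolyl and lysyl hydroxylases that modify collagen.

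The 49 genes held 2381 positions with 6 values, a median of 36 per gene against 15 over all tested genes. Nearly all of them lay in gene bodies: 87 positions (3.65%) were within 1000 bases of an end of their own gene's span. Over all positions in gene windows 14.1% were within 1000 bases of an end of any tested gene. That is a wider measure, so the 2 shares are not directly comparable. Counted at each gene's own ends, 6 of the 49 genes had 3 or more such positions, against 36.3% of all tested genes. The table lists no level between 0 and 40%, and a 0, which may be a low level or a missing call, was treated as no value. The levels below therefore describe methylated positions inside these genes and say little of their promoters. Read depth is not in the table.

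Promoter sequence was held by RefSeq (GRCm38.p6, the assembly of mm10) for 34 start sites of 30 of the genes, each from 250 bases before to 50 bases after the start. A listed cytosine fell into 2 of these 34 windows (5.88%), against 4.32% of 18212 windows over the same chromosomes. Col18a1, which encodes a basement membrane collagen whose C-terminal fragment is endostatin, shows the contrast, since it has a distal and an internal start site on the minus strand. Both windows are printed 5′ to 3′ with every CG pair, the searched motif, in capitals; CG reads the same on both strands, and it occurs in 95.04% of the 18212 windows.

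Col18a1 distal start (chr10:77166481-77166780): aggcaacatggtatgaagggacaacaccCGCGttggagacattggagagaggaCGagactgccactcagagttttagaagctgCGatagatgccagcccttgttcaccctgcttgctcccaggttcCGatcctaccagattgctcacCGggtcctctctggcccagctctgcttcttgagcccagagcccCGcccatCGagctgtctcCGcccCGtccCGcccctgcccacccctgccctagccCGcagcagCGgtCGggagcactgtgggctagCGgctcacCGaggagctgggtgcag

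Col18a1 internal start (chr10:77113656-77113955): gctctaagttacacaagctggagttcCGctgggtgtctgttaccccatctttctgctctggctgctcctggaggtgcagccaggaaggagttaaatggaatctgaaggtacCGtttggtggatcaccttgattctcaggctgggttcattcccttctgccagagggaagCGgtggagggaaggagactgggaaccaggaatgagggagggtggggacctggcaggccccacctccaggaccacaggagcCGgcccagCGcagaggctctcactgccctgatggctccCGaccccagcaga

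The distal window of Col18a1 has 16 CG pairs and no listed position. The internal window has 6, and the CG at bases 258 and 259 of the window is listed on both strands. The cytosine at 77113697 was at 70%, 67% and 74% in control replicates 1 to 3 and at 82%, 75% and 77% in DM-aKG replicates 1 to 3. Its partner at 77113698 was at 70%, 86% and 67% in the controls and at 62%, 81% and no value with DM-aKG, so the values on the 2 strands were not alike. Other CG-rich windows without a listed position included those of Mmp24 and Adamts14 (44 CG pairs each) and Col5a1 (34).

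Methylation of the matrix genes was on average slightly higher with DM-aKG, and no gene passed the test. The mean over the 49 genes was 82.1%, 84.7% and 85.1% in control replicates 1 to 3 and 85%, 85.8% and 86.5% in DM-aKG replicates 1 to 3. The treated libraries overlap the controls narrowly, and control replicate 1 stands lowest. Group means were 83.9% ± 1.63 (SD, n = 3) and 85.8% ± 0.750 (SD, n = 3), a difference of 1.82 percentage points. Of the 49 genes 41 had a higher and 8 a lower mean with DM-aKG, against a background of 66.3% higher among all tested genes, and the median difference was 1.66 points against 0.733. None of the 49 had a limma adjusted p under 0.05 (background 0%), the values running from 0.764 to 0.984, and 1 gene, Adamts13, had an unadjusted p under 0.05, with a higher level (background 6.23% in either direction and 4.94% higher). For the median matrix gene the 95% interval reached 4.04 points to either side of the estimate, so differences of a few points could not be resolved in single genes.

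**Figure D1:**
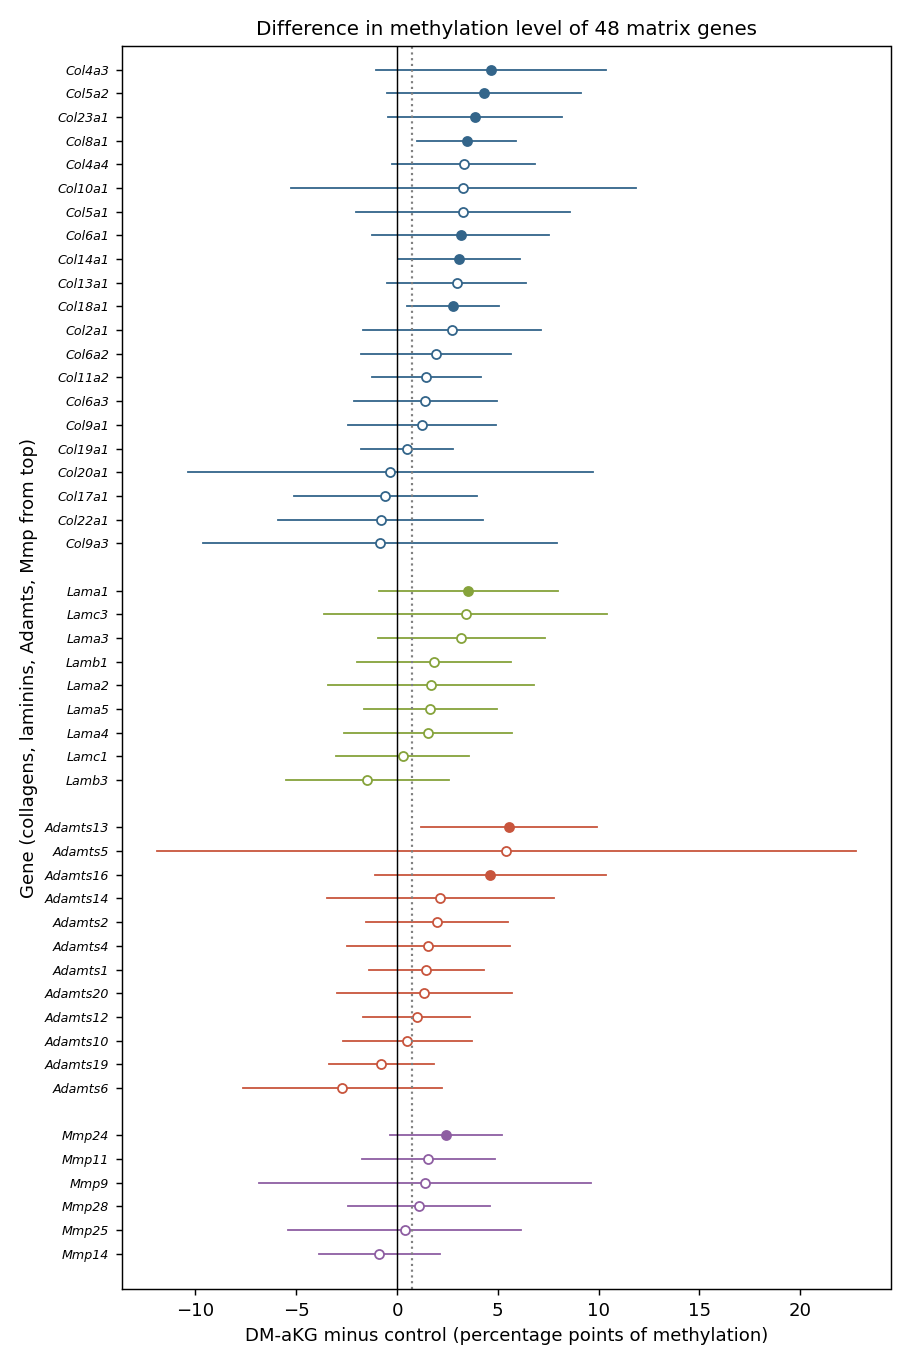
Difference in methylation level (DM-aKG minus control, percentage points, horizontal axis) of 48 of the 49 genes (vertical axis, by family), with its 95% interval from limma on untransformed levels. Filled points mark the 11 genes whose groups do not overlap, the dotted line is the median of all tested genes (0.733), and most intervals cross 0.

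Groups did not overlap in 11 of the 49 genes, all 11 higher with DM-aKG (background 11.3% higher, 2.53% lower and 13.8% in either direction). They were 7 collagen genes (Col4a3, Col5a2, Col23a1, Col8a1, Col6a1, Col14a1 and Col18a1), 1 laminin (Lama1), 2 Adamts genes (Adamts13 and Adamts16) and Mmp24. A complete separation of 3 from 3 has an exact two-sided permutation p of 0.1, which cannot pass 0.05. Control replicate 1 was the lowest of the 6 libraries in 30 genes (61.2%, background 38.6%), and DM-aKG replicate 3 was the highest in 23 (46.9%, background 28.1%).

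Without control replicate 1 the median difference of the 49 genes was 0.764 points against 0.487 over all genes, and 37 genes were higher (75.5%, background 62.8%). With the library means equalised, which moved the median of all tested genes from 0.733 to -0.178 points, 35 of the 49 were higher (71.4%, background 46.4%) and their median was 0.710. With each 0 counted as a level of 0, 29 of 50 genes were higher (58%, background 49.0%) and 21 lower, the fiftieth being Mmp19. Their median was then 1.0 points against -0.111 over all genes. The share of listed positions with a value was 82.1% in control replicate 1 and 86.3% to 89.6% in the other libraries over these genes. Its part in the differences was not tested.

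**Figure D2:**
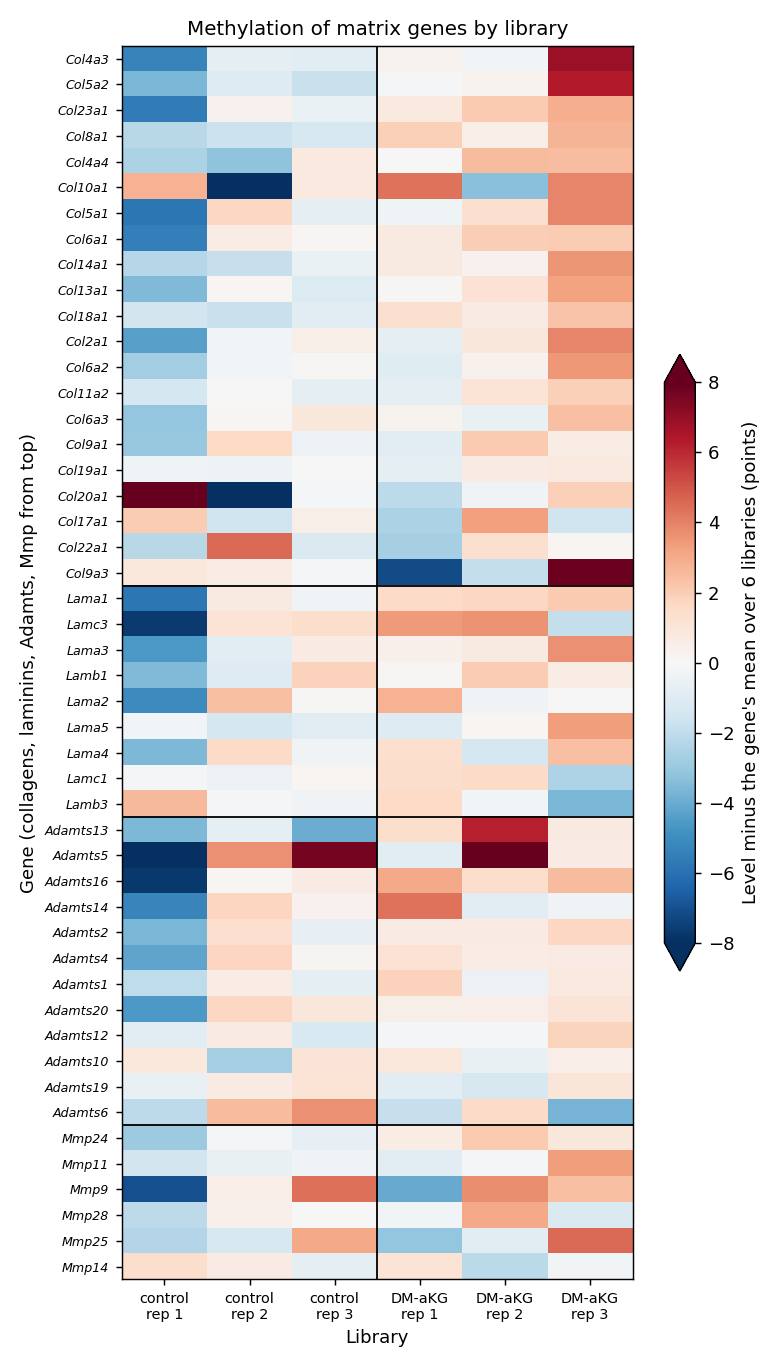
Level of 48 of the 49 genes in each library (columns) minus the gene's mean over the 6 libraries (percentage points, colour limited to 8 points either way); black lines separate the groups and the families. Control replicate 1 is the bluest column, lowest of 6 in 30 genes, and DM-aKG replicate 3 is the reddest, highest in 23.

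The collagens had the largest median difference of the 4 families, 2.78 points, with 17 of 21 genes higher; whether the families differ was not tested. Their control mean was 83.0% ± 0.815 (SD, n = 3) and their DM-aKG mean 85.2% ± 1.71, and DM-aKG replicate 3 was the highest library in 15 of the 21. Without control replicate 1 their median was 1.24 points. The collagens did not come first under every setting. On positions in 1 gene window only, the median was 1.69 points for collagens and 1.70 for laminins. With each 0 counted as a level it was 1.12 for collagens and 1.78 for laminins. Without control replicate 2 it was 2.53 for collagens and 2.66 for Adamts genes.

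Among basement membrane collagens, Col18a1 (chromosome 10, 77052178 to 77166530) had 142 positions, none shared with another gene. It was at 84.4%, 84.1% and 85% in control replicates 1 to 3 and at 87.1%, 86.5% and 88.1% in DM-aKG replicates 1 to 3. The groups do not overlap and each is tight, 84.5% ± 0.464 against 87.3% ± 0.817, a difference of 2.78 points with a 95% interval of 0.476 to 5.08 (limma adjusted p = 0.764). The difference was 2.72 points without control replicate 1 and 2.34 without DM-aKG replicate 3. Col4a3 and Col4a4 encode network-forming collagen IV chains and start head to head on chromosome 1, with spans that overlap at their starts. Col4a3 was at 83.1%, 87.7% and 87.6% in the controls and 88.8%, 88.2% and 95.4% with DM-aKG, and Col4a4 was at 79.6% ± 2.14 and 82.9% ± 1.46. In Col4a3 the treated libraries lay above the controls with replicate 3 well apart, and in Col4a4 the groups overlapped. The 2 genes share no measured position, but 19 of the 29 positions of Col4a3 lie in other gene windows, and the remaining 10 gave 88.5% and 90.9%.

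Col18a1 and Lama5 had the most positions of the collagens and laminins. Grouping positions into blocks separated by gaps of at least 1000 bases gave Col18a1 12 blocks of 5 or more positions, with control levels from 69.4% to 93.2%. The difference was positive in 10 of them and negative in 2, from -1.44 to 7.40 points, and the groups did not overlap in 4, all higher with DM-aKG. The level varied more along the gene than between the groups. In Lama5 7 of 9 such blocks were higher and 2 lower, from -1.5 to 8.0 points, and the groups overlapped in all 9. In other long or densely measured genes the higher blocks were 8 of 9 in Lama1, 6 of 10 in Col13a1 and 6 of 7 in Adamts20. They were 3 of 5 in Adamts2, 1 of 3 in Mmp14 and 2 of 2 in Mmp24. Of these genes Lama1 and Col13a1 had 2 blocks each without overlap, Mmp14 had 1, and the others had none. A share over the blocks of all tested genes is not given.

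**Figure D3:**
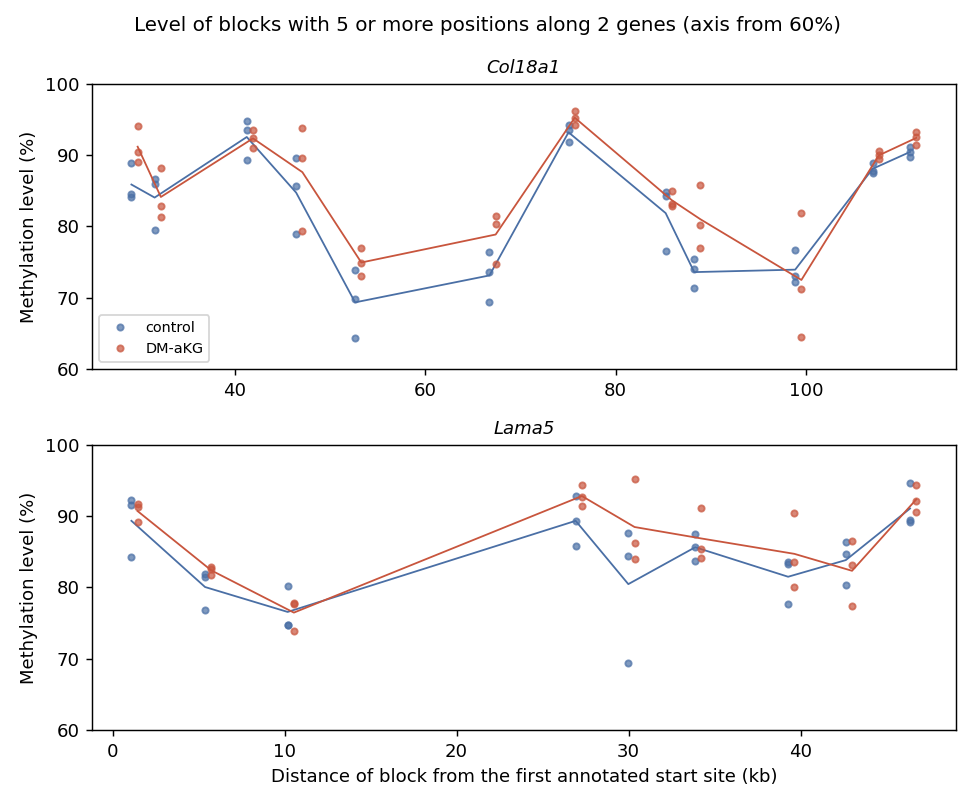
Methylation level (%, vertical axis from 60%) of blocks with 5 or more positions along Col18a1 and Lama5, by distance from the first annotated start site (kb). Points are libraries and lines join group means. Both groups follow the same peaks and dips. With DM-aKG 10 of 12 Col18a1 blocks and 7 of 9 Lama5 blocks are higher, with no share over the blocks of all tested genes given.

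The fibril-forming collagens Col2a1, Col5a1, Col5a2 and Col11a2 were all higher, by 1.46 to 4.31 points. Col5a2, a chain of the collagen V that helps start fibrils, was at 78.1%, 80.7% and 80% in the controls and 81.6%, 82.1% and 88.1% with DM-aKG. Its groups did not overlap, by a narrow margin in replicates 1 and 2 (limma adjusted p = 0.764), and the difference of 4.31 points was 2.21 without DM-aKG replicate 3. Its partner chain Col5a1 was at 78.8% ± 3.81 and 82.1% ± 2.15 with overlapping groups. The cartilage collagen gene Col2a1 was at 84.0% ± 2.60 and 86.7% ± 2.33, and Col11a2 at 79.97% ± 0.703 and 81.4% ± 1.38, which became a difference of -0.881 points with each 0 counted as a level. In all 4 fibril-forming genes control replicate 1 was the lowest library and DM-aKG replicate 3 the highest.

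Collagen VI, whose chains assemble into beaded microfibrils, was represented by Col6a1, Col6a2 and Col6a3, higher by 3.15, 1.92 and 1.41 points. Col6a1 was at 78.0%, 84.1% and 83.6% in the controls and 84.2%, 85.5% and 85.5% with DM-aKG. The separation rests on a small gap between control replicate 2 and DM-aKG replicate 1, and without control replicate 1 the difference was 1.2 points. With each 0 counted as a level it was -6.34. Col6a2 differed by 0.661 points without DM-aKG replicate 3, and Col6a3 by 0.218 without control replicate 1 and by -4.87 with each 0 counted as a level.

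The short-chain network collagen Col8a1 (chromosome 16, 57624256 to 57754737), found in vessel walls, had 36 positions and the smallest p of the collagens. It was at 80.9%, 81.4% and 81.8% in the controls and 85%, 83.6% and 85.8% with DM-aKG. Each treated library exceeded each control by more than the whole range of the controls, and the difference was 3.46 points (95% interval 1.01 to 5.92, limma adjusted p = 0.764). It was 3.22 points without control replicate 1. Col10a1, the collagen of hypertrophic cartilage, had 9 positions that all lie within Nt5dc1 and cannot be given to either gene; they were at 88.1% ± 6.05 and 91.4% ± 4.30, and the difference of 3.30 points was -0.148 without control replicate 2 and -6.06 with each 0 counted as a level.

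The collagens that sit on the surface of fibrils, Col9a1, Col9a3, Col14a1, Col19a1, Col20a1 and Col22a1, were split evenly: 3 had a higher and 3 a lower mean (median difference 0.0794 points). Col9a1 differed by 1.23 points, 0.0388 without control replicate 1, and Col19a1 by 0.492, -0.502 with equalised library means. With each 0 counted as a level, Col9a1 was at -3.33, Col19a1 at -8.98, Col20a1 at 6.74 and Col22a1 at 2.27 points. Col14a1 was at 80.7%, 81.1% and 82.4% in the controls and 83.6%, 83.3% and 86.5% with DM-aKG, without overlap (limma adjusted p = 0.764). Of its 37 positions 20 lie in another gene window as well, and the other 17 differed by 1.18 points. Col22a1 was at 87.2%, 93.9% and 88.2% in the controls and 86.7%, 90.7% and 89.5% with DM-aKG, the highest control level among the collagens. Its groups overlap. Col9a3, with 4 positions, was at 76.5%, 76.2% and 75.5% against 68.5%, 73.8% and 83.5%, and Col20a1, with 7, at 92.7%, 75.6% and 83.7% against 81.7%, 83.6% and 85.7%. Both genes have few positions and a spread in 1 group far larger than the difference.

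Of the transmembrane collagens, Col23a1 was at 73.8%, 79.7% and 78.9% in the controls and 80.2%, 81.5% and 82.3% with DM-aKG. Its 88 positions gave separate groups and a difference of 3.86 points, 2.02 without control replicate 1. Col17a1, the hemidesmosome collagen that anchors epithelial cells to the basement membrane, was at 87.0%, 83.4% and 85.5% in the controls and 82.5%, 88.3% and 83.4% with DM-aKG, with overlapping groups. Col13a1 was at 79.1% ± 1.91 and 82.1% ± 1.58, and of its 123 positions 79 are shared with other annotated genes; the 44 others were at 79.1% and 79.8%.

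Laminin genes were higher in 9 of 10, with a median of 1.68 points, and at 84.9% ± 1.70 (SD, n = 3) and 86.5% ± 0.531; none passed the test. Without control replicate 1 the median was 0.481. The 5 alpha chain genes were all higher. Lama1 (chromosome 17, 67697127 to 67822645), a chain of early basement membranes, was at 76.4%, 82.9% and 81.9% in the controls and 83.7%, 83.8% and 84.3% with DM-aKG. The treated libraries lie within 1 point of each other and above all controls, and the difference of 3.54 points (limma adjusted p = 0.764) was 1.54 without control replicate 1. With each 0 counted as a level it was -1.56. Lama3, a chain of the hemidesmosomal laminin, was at 81.0%, 84.7% and 86.2% against 86%, 86.2% and 89.2%. The lowest treated value falls just under the highest control, and the difference of 3.18 points was -2.57 with each 0 counted as a level.

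Lama5 (chromosome 2, 180176373 to 180225904), the main alpha chain of the adult intestinal epithelial basement membrane, had 154 positions, the most of the 49 genes. It was at 85.9%, 84.8% and 85.3% in the controls and 85.2%, 86.3% and 89.5% with DM-aKG. The groups overlap, and the difference of 1.66 points was 0.408 without DM-aKG replicate 3. Lama2, the muscle chain, was at 81.6%, 89.1% and 86.8% against 89.5%, 86.4% and 86.8%, and Lama4, abundant in vessels, at 77.5%, 82.6% and 80.8% against 82.4%, 79.7% and 83.4%. In both genes control replicate 1 was the lowest library, and without it their differences were -0.417 and 0.139 points.

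The median difference over the 2 beta chain genes was 0.179 points. Lamb1, a widely used beta chain, was at 79.3%, 81.8% and 84.6% in the controls and 82.9%, 84.9% and 83.4% with DM-aKG, and its difference of 1.83 points was -4.25 with each 0 counted as a level. Lamc1, the gamma chain of most laminins, was at 92.6%, 92.3% and 92.9% against 94.1%, 94.3% and 90.3%. Its treated libraries lay on both sides of the controls, and the difference of 0.286 points was -0.562 once library means were equalised. Lamb3, whose product joins that of Lama3 in 1 trimer, was at 89.3%, 86.6% and 86.4% against 88.3%, 86.5% and 83.0%, the only laminin lower with DM-aKG (-1.48 points, limma adjusted p = 0.846). The Lamb3 difference was -0.0317 points without DM-aKG replicate 3 and -16.2 with each 0 counted as a level. Lamc3 was at 73.9%, 82.6% and 82.9% against 84.9%, 85.1% and 79.6%, and its difference of 3.41 points was 0.444 without control replicate 1.

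Among the 12 Adamts genes 10 had higher and 2 lower means, the median being 1.5 points, and the family was at 85.6% ± 3.05 (SD, n = 3) and 87.4% ± 0.370. The large control SD comes from replicate 1, at 82.0% against 87.4% and 87.2% in the other controls, and without it the median was 0.340 points. Adamts13 (chromosome 2, 26973361 to 27009625), the protease that cuts von Willebrand factor, was at 83.2%, 86% and 82.8% in the controls and 88.2%, 93.0% and 87.5% with DM-aKG. This was the largest difference of the 49 genes, 5.56 points (95% interval 1.21 to 9.92, limma adjusted p = 0.764), over 13 positions, and it was 5.17 without control replicate 1. With each 0 counted as a level it was -3.74. Adamts16 was at 78.9%, 86.7% and 87.2% against 89.6%, 88.0% and 89.1%, also without overlap. Its difference of 4.63 points was 1.93 without control replicate 1 and -1.23 with each 0 counted as a level.

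The procollagen propeptidase gene Adamts2 was at 78.2%, 83.2% and 81.2% in the controls and 82.6%, 82.5% and 83.5% with DM-aKG over 120 positions, and its relative Adamts14 at 81.0% ± 3.72 and 83.2% ± 2.85. Both overlapped between groups, and without control replicate 1 they differed by 0.649 and 0.0322 points. Of the proteoglycan-cutting enzymes, Adamts1 was at 91.5%, 94.2% and 92.9% against 95.5%, 93.1% and 94.4%, while Adamts5 had 4 positions and ran from 62.0% to 89.0% in the controls and from 80.5% to 89.8% with DM-aKG. The spread of Adamts5 leaves its difference of 5.42 points with an interval of -11.9 to 22.7. Adamts4 and Adamts20 differed by 1.55 and 1.36 points, which became -0.181 and -0.599 without control replicate 1, and Adamts4 was at -0.641 with each 0 counted as a level. Adamts6 was at 86.6%, 91.1% and 92.3% in the controls and 86.8%, 90.1% and 84.9% with DM-aKG, the lowest difference of the 49 genes at -2.71 points (limma adjusted p = 0.766). Adamts19 was at 91.9%, 93.1% and 93.5% against 91.6%, 91.2% and 93.4%, and in both genes the groups overlap.

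Among the 6 Mmp genes 5 had higher means and 1 a lower mean, the median being 1.24 points, and the family was at 82.3% ± 1.72 and 83.3% ± 1.41. Without control replicate 1 the median was -0.0353. Mmp24, a membrane-type protease, was at 88.0%, 90.7% and 90.2% in the controls and 91.5%, 93.0% and 91.8% with DM-aKG, without overlap and 2.44 points apart (limma adjusted p = 0.764). Mmp14, the membrane-type collagenase that activates progelatinase A, was the exception at 88.9%, 88.2% and 86.8% against 88.6%, 85.4% and 87.3%. Its 74 positions gave overlapping groups and a difference of -0.869 points.

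Mmp9, the gelatinase B gene, had the lowest level of the 49 genes, with 7 positions at 56.3%, 63.9% and 67.7% in the controls and 59.3%, 67.0% and 65.7% with DM-aKG. No other gene of the 49 had a control mean under 76%. The replicates of Mmp9 spread over more than the difference of 1.38 points, which turned to -1.60 with a flank of 2000 bases. Mmp11, a protease activated inside the cell by furin, was at 89.3%, 90.1% and 90.4% against 89.9%, 90.6% and 94.1%, with only DM-aKG replicate 3 clearly above the controls. The 22 positions of Mmp11 outside other gene windows differed by 0.424 points, against 1.56 over all 28. Mmp28 was at 78.3%, 80.8% and 80.4% against 80.2%, 83.4% and 79.2%, a difference of 1.09 points. Of its 26 positions 15 lie in other gene windows as well, and the other 11 were at 73.5% and 78.6%, 5.15 points apart. Mmp25 was at 84.0% ± 2.86 and 84.4% ± 3.91, a difference that ran from -1.79 to 2.02 points with 1 library left out.

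Genes that were less methylated in the controls differed more. Across the 49 genes the control level and the difference had a Spearman correlation of -0.469 and a Pearson correlation of -0.361; the control values enter both measures, so this is a description only. In 4 ranges of control level, chosen after the data were seen, the matrix genes had medians of 3.28 points under 80% (11 genes), 2.73 from 80% to 85% (17), 1.29 from 85% to 90% (16) and 0.286 from 90% (5). All tested genes had medians of 2.71, 1.88, 1.0 and 0.133 points in the same ranges. The median control level was 84.0% for the matrix genes and 88.6% for all tested genes. In each of the 4 ranges the median of the matrix genes was above that of all tested genes. The mean difference did not keep this order. Under 80% it was 2.70 points for the matrix genes and 2.71 for all tested genes, and from 90% it was -0.280 and 0.0635. From 80% to 85% it was 2.51 and 1.63, and from 85% to 90% it was 1.13 and 0.920. The part of the control level in the larger median of the matrix genes was not tested.

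**Figure D4:**
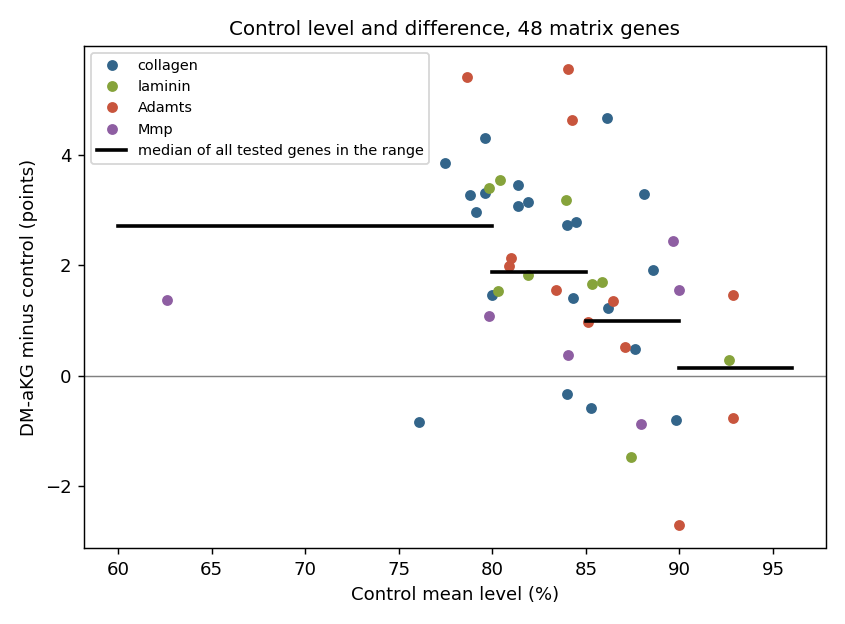
Control mean level (%, horizontal axis) and difference (DM-aKG minus control, points, vertical axis) of 48 of the 49 genes, coloured by family. Black lines are the medians of all tested genes in 4 ranges of control level (2.71, 1.88, 1.0 and 0.133 points from left to right). The median of the matrix genes falls from 3.28 points under 80% to 0.286 from 90%, where differences still run from -2.71 to 1.46.

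The same held for single positions. Of the 2381 positions 694 (29.1%) had a mean under 80%, against 20.2% of all positions in gene windows. These partly methylated positions averaged 67.6% ± 3.12 (SD, n = 3) without and 71.1% ± 2.03 with DM-aKG, 3.55 points apart, and 1.76 points without control replicate 1. The 1687 positions at 80% or more were at 90.8% ± 0.907 and 92.0% ± 0.321, 1.2 points apart and 0.682 without control replicate 1. Over all gene windows the same classes differed by 2.32 and 0.641 points. Of the 2381 positions 1407 were higher (59.1%, against 52.8% over all gene windows), 876 lower and 98 equal, and 48 stood at 100% in every library (2.02%, against 3.47%).

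By limma on all 272327 positions, 3 of the 2381 passed an adjusted p of 0.05, a share of 0.126% against a background of 0.149%; 1 was higher and 2 were lower (background 0.0911% and 0.0584%). A position in Col13a1, also inside the lncRNA gene Gm40674 (chromosome 10, 61871871), was at 67%, 71% and 50% in the controls and at 100% in all treated libraries (limma adjusted p = 0.0386). Positions in Lamb1 (chromosome 12, 31299556) and Adamts2 (chromosome 11, 50796328) were at 100% in all controls. With DM-aKG the Lamb1 position was at 80%, 75% and 88% (limma adjusted p = 0.0463) and the Adamts2 position at 95%, 95% and 94% (limma adjusted p = 0.0407). In each of the 3 one group has no spread at 100%. The neighbours within 100 bases went the same way in Col13a1, where 2 others were at 72.2% and 84.2%. They did not in Lamb1, where 4 were at 95.9% and 96.8%, or in Adamts2, where 13 were at 95.5% and 96.3%. None of the 3 passed on untransformed levels, with an offset of 0.05 or without any 1 of the DM-aKG replicates.

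**Figure D5:**
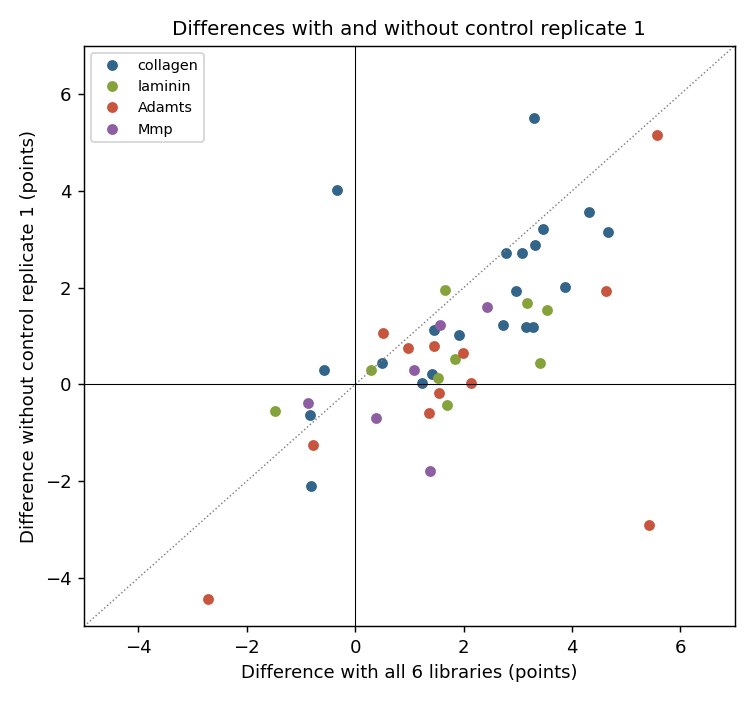
Difference of 48 of the 49 genes (DM-aKG minus control, points) with all 6 libraries (horizontal axis) and without control replicate 1 (vertical axis), coloured by family; the dotted line marks equal values. Most points lie under the dotted line, the median of all 49 is 1.66 and 0.764, and Adamts5 goes from 5.42 to -2.92.

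Of 92 other genes of matrix biology, listed with earlier results of these data known, 45 had a tested value. Higher means were found in 33 (73.3%, background 66.3%) and lower means in 12, with a median of 1.33 points (0.733 over all tested genes). None passed an adjusted p of 0.05 by limma (background 0%), and 2 had an unadjusted p under 0.05 (background 6.23%). Groups did not overlap in 6 genes that were higher (13.3%, background 11.3%) and in 1 that was lower (background 2.53%). P4ha2, a prolyl hydroxylase subunit that modifies procollagen, was at 84.3% ± 0.534 and 88.7% ± 1.21 without overlap (limma adjusted p = 0.764). The small proteoglycan gene Dcn was at 79.3% ± 5.07 and 85.8% ± 1.97. In the other direction the integrin genes Itgb5 (93.4% ± 0.436 and 92.1% ± 1.19) and Itga3 (90.6% ± 1.29 and 88.7% ± 2.70) were lower. Basement membrane and adhesion partners had 10 of 17 genes higher (58.8%, background 66.3%), with a median of 0.489 points. Of the 5 collagen-processing genes 4 were higher (80%).

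The table holds no expression, so the organoid label could not be checked against transcripts. Of 20 marker genes of epithelium, fibroblasts, immune cells and endothelium, 9 had a tested value. The epithelial genes Epcam (90.1% ± 1.89 and 87.9% ± 0.967) and Vil1 (83.6% ± 0.381 and 83.1% ± 0.976) were lower with DM-aKG, Epcam without overlap, and so was Krt20 (95.1% ± 3.23 and 93.1% ± 1.03), while Krt8 was higher. Without control replicate 1 the differences of Epcam and Krt20 were -1.11 and -0.333 points. The gap in Epcam was narrow, with control replicate 2 at 88.81% and DM-aKG replicate 3 at 88.71%. Over all tested genes 33% were lower, and 2.53% were lower without overlap. All 3 fibroblast markers measured were higher: Pdgfrb (78.0% ± 8.11 and 83.7% ± 1.21), Vim (94.2% ± 0.165 and 96.5% ± 1.07) and Dcn, the first 2 without overlap. The background was 66.3% higher, and 11.3% higher without overlap. In Pdgfrb the gap was narrow, with control replicate 2 at 82.75% and DM-aKG replicate 2 at 82.83%. Control replicate 1 was the lowest library of each fibroblast marker, and without it Pdgfrb differed by 1.04 points in place of 5.72, Dcn by 3.74 in place of 6.48 and Vim by 2.24 in place of 2.33. The immune marker Ptprc was at 71.6% ± 5.51 and 76.6% ± 3.23, a difference of 5.04 points that was 1.93 without control replicate 1, and the endothelial marker Pecam1 at 90.01% ± 1.82 and 90.1% ± 0.285. None of these passed an adjusted p of 0.05 by limma, and the part of cell composition in the values of the matrix genes was not tested.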

How the data were processed

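DNA methylation was measured in 6 libraries, 3 controls and 3 treated with DM-aKG, as labelled in the sample titles. The authors deposited whole percent values of methylation for each cytosine and library, without coverage. Per the submitters' processing notes the build was mm10 and the tools were CASAVA 1.8 and Novoalign 3.08.02; their roles are not stated, and for the methylation caller no name is given in the sources used here. At 99.9% of 13472 listed positions inside RefSeq promoter windows the start column named the C or G of a CpG counted from 1, so positions are given 1-based.

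Only the first 390208 of 813850 rows were used (chromosomes 1, 2, 10 to 19 and the start of 3). In later autosomal rows the correlation of control replicates 1 and 2 with the other 4 libraries falls from between 0.573 and 0.743 to between -0.00595 and -0.00199. A gene value is the mean of positions valued in all 6 libraries in the RefSeq span (GRCm38.p6) plus 1000 bases, with at least 3 positions. limma 3.58.1 (R 4.3.3) was fitted to all 9197 genes, and separately to all positions, on log2 odds with an offset of 0.01 that was computed from the deposited percent values, adjusted by Benjamini-Hochberg and called under 0.05. Intervals (95%) are from limma on untransformed levels. Since coverage is unknown, no minimum of depth could be set. The p-values rest on the spread between libraries, with each variance drawn by limma toward that of all genes or positions. In that spread, differences between cultures, library preparation and the sampling of reads cannot be told apart. The fit was tested on simulated data with shifts larger than any difference of the matrix genes. That gives no measure of its power at the differences seen here.

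Genes given library by library follow a rule: per family the 4 smallest p in each direction, all laminins and the extremes of control level; Col4a3, Col4a4, Col6a1, Col23a1 and further genes given by group means were added after their values were seen. The 92 other matrix genes and 20 marker genes were listed by name. Members and lists were chosen with earlier results of these data known. The rule for promoters asked for 3 complete positions and found none, so Col18a1 was chosen after the values were seen. A single laminin gene is counted but not reported here by itself. Alternatives are in the closing section.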

Additional observations from a re-analysis of the deposited data

How the results depend on the processing

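No matrix gene passed the threshold under any alternative, and the median over the matrix genes stayed between 0.710 and 2.35 points. With a replicate block, which treats equal replicate numbers as pairs, 0 matrix genes and 0 positions passed. Deviations of same-numbered libraries correlated at 0.0652, -0.0276 and 0.0306 over all genes and at 0.161, 0.304 and -0.132 over the matrix genes. With 3 libraries a group these values cannot settle whether equal numbers were paired. The count of 3 positions was also 0 on untransformed levels, with an offset of 0.05, with robust variance and with equalised library means, and it ran from 0 to 7 with 1 library left out. Counting each 0 as a level turned the median of all genes to -0.111. It moved the collagen median to 1.12 and the difference of library means to 0.533. Among genes named by the rule it turned Adamts13 to -3.74, Adamts16 to -1.23, Col20a1 to 6.74, Col22a1 to 2.27, Lama1 to -1.56 and Lama3 to -2.57. It also turned Lamb1 to -4.25, Mmp28 to -1.19, Mmp9 to -20.4, P4ha2 to -2.53 and Itgb5 to 5.99. Among genes outside the rule it turned Col6a1 to -6.34, Col6a3 to -4.87, Col9a1 to -3.33, Col10a1 to -6.06 and Col11a2 to -0.881. There it also turned Col19a1 to -8.98, Adamts4 to -0.641 and Adamts12 to -1.02. Equalised library means gave -0.178 for the median of all genes and -0.562 for Lamc1. Outside the rule they gave -0.502 for Col19a1, -0.309 for Adamts10, -0.0513 for Adamts12 and -0.543 for Mmp25. Positions near span ends gave -0.819 for the Mmp median and -0.333 for the other matrix genes, with no value for laminins, and a flank of 2000 bases gave -1.60 for Mmp9. With 1 library left out the collagen median ran from 1.24 to 3.17 points and the Mmp median from -0.0353 to 2.20. Among the genes named by the rule these ranges crossed 0 for Adamts5 (-2.92 to 10.6), Col17a1 (-2.36 to 0.536), Col20a1 (-4.55 to 4.02), Col22a1 (-2.10 to 1.26), Col9a3 (-4.96 to 2.54), Lama2 (-0.417 to 3.33), Lamc1 (-0.415 to 1.61), Mmp14 (-1.63 to 0.00225), Mmp28 (-0.141 to 1.94) and Mmp9 (-1.79 to 3.93). Of the 19 genes outside the rule they crossed 0 for 5, Col10a1 (-0.148 to 5.78), Adamts4 (-0.181 to 2.80), Adamts20 (-0.599 to 2.52), Adamts10 (-0.674 to 1.16) and Mmp25 (-1.79 to 2.02); those ranges, and the marker genes without control replicate 1, were added after seeing the data. The causes were not tested. Unknown coverage and 3 libraries a group limit all values.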
